A study of Mus musculus with 2 samples.

Results

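Natural killer (NK) cells were taken from 12458 single cells of CD45-positive sorts that had been enriched for dendritic cells. They were the cells with a unique molecular identifier (UMI) of Ncr1 and of at least 1 of Klrb1c, Eomes and Klre1, and with no UMI of Cd3e, Cd79a and Cd8b1. This left 166 cells. The sorts came from C57Bl6 mice with subcutaneous MC38-OVAdim tumours, a mouse colon carcinoma line that carries ovalbumin. In 2 mice (KO1 and KO2) Havcr2, the gene of the receptor TIM-3, had been targeted, and 2 mice with floxed Havcr2 alleles and no deletion by label (WT1 and WT2) were the controls. The labels used here give no Cre driver, no deleted exons and no age. Sampled from each mouse were the tumour, the lymph node that drains it (dLN) and a node that does not (ndLN). KO1 shared droplet channel 1 with WT1, and KO2 shared channel 2 with WT2. Tumours were digested and passed over a density gradient, whereas only digestion is described for the nodes.

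NK cells are innate lymphocytes that kill transformed or infected cells without an antigen receptor made by gene rearrangement. Activating receptors such as NKp46, the product of Ncr1, and NKG2D, the product of Klrk1, are weighed against inhibitory receptors that read MHC class I. Among these are some, but not all, members of the Ly49 family of the Klra genes. Killing runs through perforin, which lets granzyme proteases into the target cell, and through death ligands such as Fas ligand. NK cells also release chemokines, including XCL1 and CCL5, that draw in dendritic cells.

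The tumours held 93 of the NK cells, the dLN 36 and the ndLN 37. Tumour samples had 28 NK cells in KO1, 7 in KO2, 55 in WT1 and 3 in WT2. The dLN of the same mice held 5, 8, 7 and 16 NK cells, and the ndLN 8, 9, 6 and 14. Median depth was 6711 UMIs in tumour NK cells and 5311 in node NK cells, with a range over all members of 1142 to 58053. All cells of the series had 687 to 131217 UMIs. Of the members, 12 had over 20000 UMIs. No doublet caller was run here, and the channels shared 65 barcode sequences, of which 1 belonged to a member.

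Havcr2 was looked at first. In tumour macrophages, defined here by UMIs of C1qa and Csf1r without Cd3e or Ncr1, 7.48% of 1123 KO cells and 65.0% of 1422 WT cells had a Havcr2 UMI. NK cells hardly carried the transcript in either genotype. Havcr2 was found in 0 of 65 NK cells of KO mice and in 4 of 101 NK cells of WT mice, all of them in tumour. By sample, 0 of 28 (KO1) and 0 of 7 (KO2) tumour NK cells had a UMI, against 3 of 55 (WT1) and 1 of 3 (WT2). Counting error alone allows up to 10.7% of KO1 cells and 42.9% of KO2 cells to have a UMI beside these counts of 0. These limits say nothing of the share of cells that express the gene, and a genotype difference in NK cells was not detectable at this depth. None of the 73 node NK cells had a UMI. In tumour CD8 T cells, defined by UMIs of Cd3e and Cd8b1 without Ncr1 or Cd79a, Havcr2 was found in 38.7% (KO1), 17.9% (KO2), 52.8% (WT1) and 43.8% (WT2) of cells. The deleted exons are not named in the labels, and reads from a transcript's 5' end can also come from a shortened one. Whether the gene was deleted in the NK cells or CD8 T cells of KO mice was not tested. Havcr2 lies at chr11:46454935-46481255 on the plus strand of mm10.

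The genes of the gate were the values the cells were selected on, and they are given as a description. Ncr1, at chr7:4337724-4345164 on the plus strand, was found in 198 cells in all, of which 180 also had at least 1 of the 3 partner genes and 14 of these were left out for Cd3e, Cd79a or Cd8b1. Among the members, 141 had at least 2 Ncr1 UMIs and 25 had 1. Klrb1c, which encodes NK1.1, was found in 135 members, Klre1, a lectin-like receptor, in 137, and Eomes, the T-box factor of NK cells, in 109. All 3 were found in 78 members and exactly 1 of them in 29. Just inside the threshold stood 6 members with 1 Ncr1 UMI and 1 partner gene, and they averaged 16 UMIs per 10000 of the granule gene Nkg7 and 14.3 of Gzma. Just outside stood 15 cells with Ncr1 and none of the partner genes, which averaged 16.4 of Nkg7, 0 of Gzma and 21.5 of the macrophage gene Lyz2. Another 15 cells had no Ncr1 but at least 2 of the partner genes, and they averaged 27.4 of Nkg7 and 81.2 of Gzma.

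Of the markers that the gate had not used, Nkg7, Klrk1 and Klrd1 were found in most members. The perforin gene Prf1 had no UMI in most node members. Nkg7 was found in 98.9% of tumour and 100% of node members, Klrk1 in 97.8% and 91.8%, and Klrd1, the CD94 chain, in 95.7% and 93.2%. Tumour macrophages also had a Klrk1 UMI in 42.2% of cells, at 0.437 UMIs per 10000 against 7.77 in tumour NK cells. The shares of cells with Nkg7 were 0.943% in tumour macrophages and 0.549% in node B cells, whose median depths were 20850 and 3168 UMIs. CD8 T cells shared these markers in part. With all cells thinned to the same depth, tumour CD8 T cells had Nkg7 in 75.5%, Klrd1 in 64.6% and Klrk1 in 43.9% of cells. Tumour NK cells had them in 96.7%, 82.6% and 78.3%. In the nodes the shares were 65.9%, 27.3% and 1.37% of CD8 T cells and 91.3%, 73.9% and 75.4% of NK cells. Of 7 T cell markers in the files 6 had a UMI somewhere among the members, and Cd5 was at 0. Their summed level was 0.216 to 0.927 UMIs per 10000 in tumour and 1.26 to 2.56 in node samples. The T cell receptor constant genes Trac, Trbc1 and Trbc2 were not in the files under these symbols, so they could not be looked at. All 4 neutrophil markers were at 0, and so were Flt3, Xcr1, Clec9a, Cd209a and Siglech of the dendritic cell list. The other 4 of its 9 markers, Zbtb46, H2-Ab1, Cd74 and Fscn1, had UMIs, and the list summed to 0.216 to 2.08 UMIs per 10000 in tumour and 0.928 to 4.66 in node samples. Of 4 B cell markers in the files 3 had a UMI, with sums of 0 to 0.0826 in tumour and 0 to 0.810 in node samples, and Ebf1 was at 0. Summed over 10 macrophage and monocyte markers the members had 3.06 to 8.67 UMIs per 10000 in tumour and 0.738 to 10.8 in the nodes. Of the tumour members 71 of 93 had none of 6 macrophage genes and 3 had at least 3 of them. The markers of innate lymphoid cells of group 1 (ILC1), relatives of NK cells that stay in tissues, summed to 0.717 to 2.29 UMIs per 10000 in tumour members and to 6.74 to 15 in node members, without overlap.

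NK cells made up a small share of every sample. In tumour the shares were 2.07% in KO1 (exact 95% interval 1.38 to 2.97%), 1.48% in KO2 (0.597 to 3.03%), 3.25% in WT1 (2.46 to 4.21%) and 0.299% in WT2 (0.0617 to 0.872%). Both KO tumours lay between the WT tumours. The mean was 1.77% in KO and 1.78% in WT tumours (exact permutation test over mice, two-sided, p = 1, where 2 against 2 mice cannot go below 0.333). In dLN the shares were 0.491% in KO1 and 0.549% in KO2, against 0.614% in WT1 and 1.52% in WT2. The dLN groups did not overlap, and the test was at its smallest value (exact p = 0.333). In ndLN the means were 1.16% in KO and 1.13% in WT (exact p = 1). Tumour had a higher share than the nodes in 3 of 4 mice and a lower one in WT2, with means of 1.77% and 0.922% (exact sign-flip test, p = 0.375, smallest possible 0.125). The dLN averaged 0.792% and the ndLN 1.14% (exact p = 0.250). Intervals cover counting error only. The sort set the denominator, and a share of sorted cells is no count of NK cells in the tissue.

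**Figure D1:**
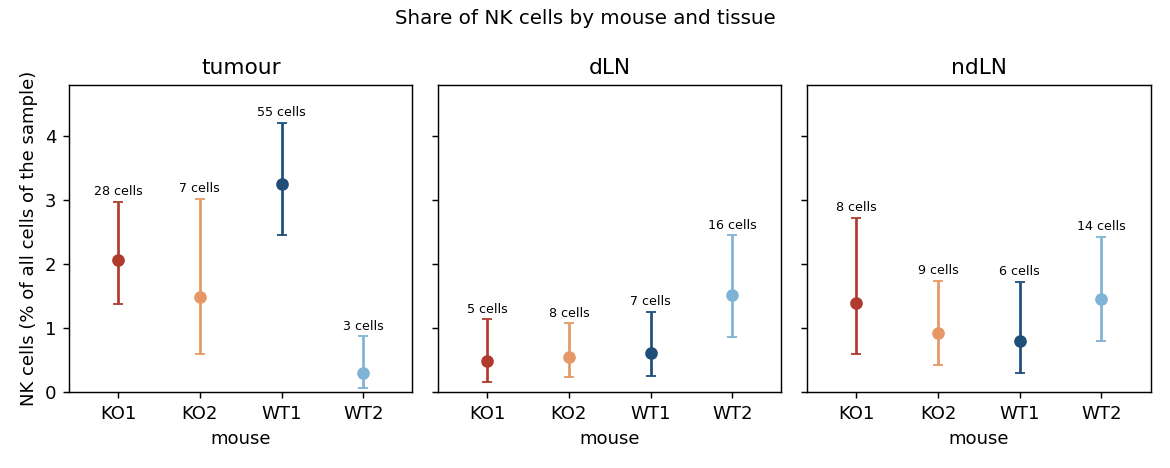
NK cells as a percentage of all cells of a sample (vertical axis) for each mouse (horizontal axis) in tumour, dLN and ndLN; points are shares, bars exact 95% binomial intervals, and the number of NK cells is printed above. In tumour the WT mice hold both the highest (3.25%) and the lowest share (0.299%), with KO1 and KO2 between them.

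The granzyme genes Gzmb, Gzmc and Gzmd, the perforin gene and the Fas ligand gene were higher in tumour NK cells than in NK cells of the nodes of the same mice, as were Irf8 and Tnfrsf9, whereas Cd7, Il7r and Xcl1 were lower. Differences are tumour minus nodes in the mean of log2(1 + UMIs per 10000) over cells, on which changes of weakly expressed genes come out too small, with dLN and ndLN of a mouse as a single sample. KO1 and WT1 had at least 10 NK cells in both tissues and entered the test, with 83 tumour and 26 node cells. Median depth was 9293 UMIs in tumour and 4313 in node NK cells of KO1. In WT1 the medians were 5522 and 4415. Among 7957 genes tested with limma and Benjamini-Hochberg adjustment at 0.05, 39 rose (0.49% of genes) and 20 fell (0.251%). This leaves 1 residual degree of freedom, so the spread rests on the trend over all genes, and without the mouse as a term only 1 gene was called. A fit of all 4 mice with at least 3 cells a sample, chosen after the cell numbers were seen, called 78 genes as higher (0.976% of 7994) and 45 as lower (0.563%). It shared 48 of the 59 genes, and none of the 59 changed sign. The 59 genes were called in KO1 and WT1, whose samples are also in this fit. Agreement between the 2 fits is therefore partly built in. With every cell thinned to 2000 UMIs 9 of the 59 were called, and the 2-mouse fit then called no other gene. Tumour CD8 T cells at that depth also had Gzmb, Prf1 and Irf8 more often (47.3%, 37.1% and 46.4% of cells) than node CD8 T cells (1.2%, 6.1% and 2.5%). Cd7 was found less often in tumour CD8 T cells (9.7% against 24.7%), while Xcl1 went the other way (7.6% against 3.4%). These shares pool the mice and were not tested.

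Gzmb, the granzyme that cuts caspases in target cells, had 31.3 (KO1), 13.4 (KO2), 40.3 (WT1) and 17.7 (WT2) UMIs per 10000 in tumour NK cells, against 5.21, 1.77, 0.190 and 2.10 in node NK cells. All 4 tumour values were above all node values. It rose by 3.03 (SE 0.33, adjusted p = 4.31e-16 by limma). Prf1, the gene of perforin, had 11.4, 14.3, 9.44 and 7.13 UMIs per 10000 in tumour, against 3.35, 4.09, 1.46 and 2.26 in the nodes. It rose by 1.65 (SE 0.31, adjusted p = 4.79e-05), and 87.1% of tumour and 43.8% of node members had a UMI of it. At 2000 UMIs a cell these shares were 68.5% and 20.3%. Prf1 was named as a marker of the cells but was not part of the gate.

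Gzmc, a granzyme of a cluster on chromosome 14, had 129 (KO1), 27.1 (KO2), 25.2 (WT1) and 174 (WT2) UMIs per 10000 in tumour, against 23.3, 14.8, 2.06 and 9.01 in the nodes, and rose by 2.12 (SE 0.29, adjusted p = 1.00e-09). Its neighbour Gzmd had 20.2, 5.90, 10.1 and 23.9 in tumour and no UMI in any node sample, and rose by 0.81 on the fitted scale (adjusted p = 0.00137). These means rest on part of the cells. Gzmc was found in 20 of 28 (KO1), 3 of 7 (KO2), 15 of 55 (WT1) and 2 of 3 (WT2) tumour NK cells. Among node NK cells it was found in 3 of 13, 5 of 17, 2 of 13 and 9 of 30. Gzmd was found in 5, 1, 5 and 2 of the same tumour cells. Gzmf had 0.41 to 69.9 in tumour and none in the nodes, and did not pass (adjusted p = 0.194). Reads of these granzymes are uncertain where the copies are near-identical. Gzma, a tryptase-like granzyme, had 54.1, 149, 138 and 58.6 UMIs per 10000 in tumour, against 48.1, 42.2, 14.8 and 25.7 in the nodes. Its difference of 1.44 passed (adjusted p = 0.0150), although KO1 did not share its direction on the log2 scale. Of the tumour members 88.2% had UMIs of at least 2 of these 5 granzyme genes.

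The list of cytotoxic granule genes and death ligands had 21 tested members, of which 6 rose and none fell. Its differences were positive for 14 genes and negative for 7, with a median of 0.18 beside 0.04 for all genes. The sixth was Fasl, the Fas ligand, with a difference of 1.23 (adjusted p = 1.91e-04). The granule proteins Nkg7 (0.18, adjusted p = 0.905), Srgn (0.99, 0.252) and Ctsw (-0.49, 0.662) did not pass. Macrophages of the tumours, a possible source of free RNA, had Gzmb in 0.629% and Prf1 in 0.354% of cells. The part of free RNA in the granule genes was not tested. The summed ILC1 markers moved the other way, as given above. This holds for the sum and not for every related gene. Of 12 tested genes of the ILC1 and tissue residency list 9 had negative and 3 positive differences, and 2, Il7r and Ltb, fell. Itga1 of that list was higher in tumour on the log2 scale in KO1 and WT1 and lower in KO2 and WT2. The part of ILC1 in the differences between tumour and nodes was not tested.

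**Figure D2:**
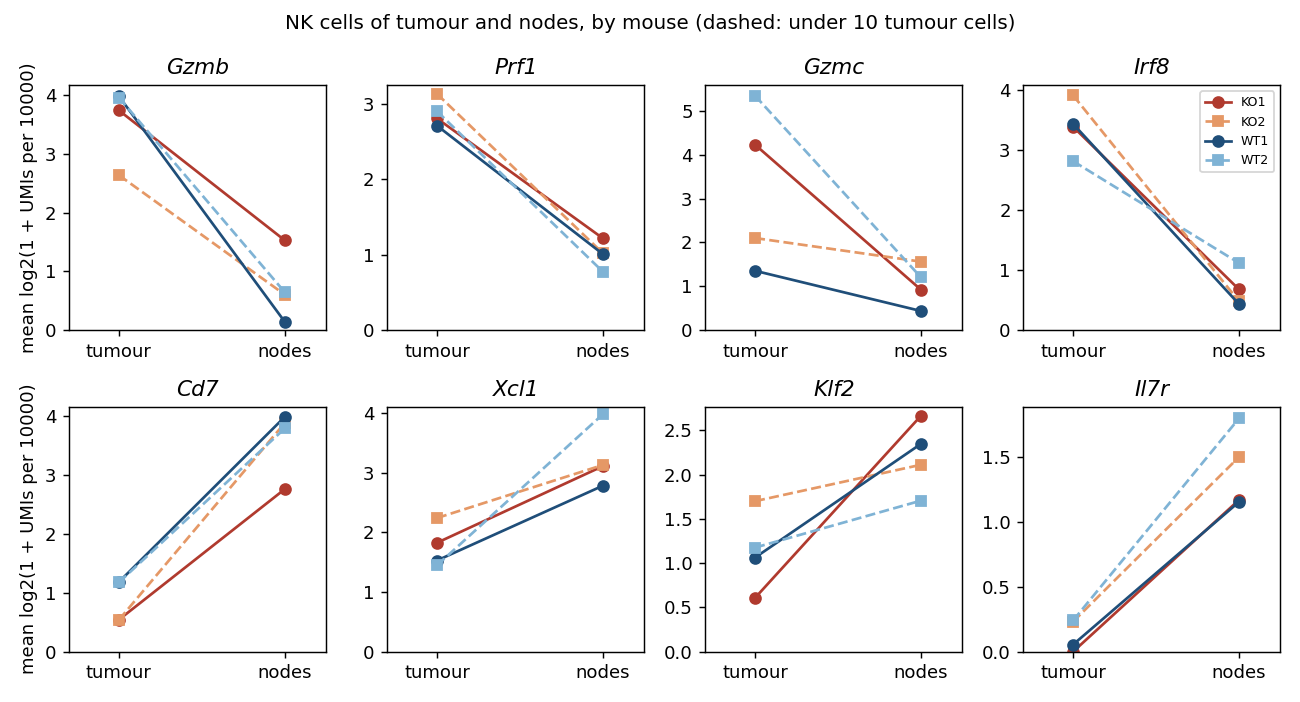
Mean log2(1 + UMIs per 10000) over NK cells (vertical axis) in tumour and nodes of each mouse, for 4 genes that rose and 4 that fell; lines join samples of a mouse, and dashed lines mark KO2 and WT2, which have 7 and 3 tumour NK cells and are outside the 2-mouse test. In all 4 mice the upper genes are higher and the lower genes lower in tumour.

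The start regions of the gate gene Ncr1, which was not called between tumour and nodes, and of 3 granzymes are shown as examples. All of these windows hold the RUNX letters marked below. Each is 300 bases around a RefSeq start of the gene on GRCm38.p6 (mm10), mostly before it, 5' to 3' on the gene's strand, and capitals mark TGTGGTT, the letters of the RUNX motif, or its reverse complement. They lie at chr7:4337465-4337764 (plus strand), chr14:56262285-56262584, chr13:113100932-113101231 and chr14:56234608-56234907 (minus strand). The Gzmb window lies wholly upstream of the gene as GENCODE places it on mm10 (chr14:56258838-56262260), whereas the other windows hold the GENCODE start.
Ncr1: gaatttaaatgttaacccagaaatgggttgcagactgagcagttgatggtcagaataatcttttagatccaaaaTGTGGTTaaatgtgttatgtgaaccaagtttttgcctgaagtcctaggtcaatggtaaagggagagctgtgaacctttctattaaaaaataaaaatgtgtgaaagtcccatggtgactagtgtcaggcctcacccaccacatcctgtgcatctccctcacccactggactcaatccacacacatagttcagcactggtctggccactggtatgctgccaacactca
Gzmb: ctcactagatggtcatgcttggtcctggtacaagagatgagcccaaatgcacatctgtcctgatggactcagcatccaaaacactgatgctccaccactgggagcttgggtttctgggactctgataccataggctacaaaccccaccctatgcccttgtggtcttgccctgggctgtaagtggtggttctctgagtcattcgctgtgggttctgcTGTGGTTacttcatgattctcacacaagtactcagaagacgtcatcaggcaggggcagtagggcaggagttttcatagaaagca
Gzma: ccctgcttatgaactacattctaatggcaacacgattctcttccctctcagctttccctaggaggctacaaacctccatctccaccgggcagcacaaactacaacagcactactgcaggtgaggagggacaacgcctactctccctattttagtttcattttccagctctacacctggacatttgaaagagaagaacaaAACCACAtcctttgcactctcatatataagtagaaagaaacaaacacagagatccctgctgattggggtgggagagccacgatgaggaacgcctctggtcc
Gzmc: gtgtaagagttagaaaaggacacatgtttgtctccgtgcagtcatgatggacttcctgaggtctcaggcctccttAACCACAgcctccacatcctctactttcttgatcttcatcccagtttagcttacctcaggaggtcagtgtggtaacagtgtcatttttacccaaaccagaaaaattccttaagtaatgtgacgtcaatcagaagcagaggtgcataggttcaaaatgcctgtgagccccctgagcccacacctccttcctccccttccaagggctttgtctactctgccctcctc
The motif begins at base 75, 217, 200 and 76 of these windows. It was found in 5.27% of the 32851 promoters of the table, by gene in 9 of 37 genes that were higher in tumour, in 5 of 14 that were lower and in 6.09% of all genes. RUNX was 1 of 8 motifs searched on both strands. The hypoxia motif ACGTG was found in 16 of 37 higher genes, in 1 of 14 lower genes and in 21.8% of all genes, and the others (T-box, ETS, GAS, STAT, kappa B and heat shock) are given in the closing section. A match describes letters in a window.

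Beyond the granules, Irf8, an interferon regulatory factor best known from myeloid cells, had 13.7 (KO1), 18.0 (KO2), 14.5 (WT1) and 12.9 (WT2) UMIs per 10000 in tumour NK cells, against 1.22, 0.931, 0.483 and 2.06 in the nodes. It rose by 2.86 (SE 0.31, adjusted p = 3.52e-16). Tumour macrophages had 3.71 UMIs per 10000 of Irf8, and C1qa stood at 0.129 in tumour NK cells and at 51.9 in macrophages. The part of free RNA in Irf8 was not tested. Tnfrsf9, the costimulatory receptor 4-1BB, rose by 1.72 (adjusted p = 3.58e-06), and all 4 tumour values (5.99 to 10.0 UMIs per 10000) were above the node values (0.32 to 1.78). The inhibitory receptor list does not separate activating from inhibitory Klra genes. Its 17 tested genes had 11 positive and 6 negative differences, with a median of 0.05 beside 0.04 for all genes. Of the 17 genes 2 rose and none fell. They were Tigit, a receptor of nectin family ligands (1.20, adjusted p = 2.87e-05), and Lilrb4a (0.74, adjusted p = 0.00843). Of 18 activating receptors and adaptors 7 had positive and 11 negative differences, with a median of -0.21 beside 0.04 for all genes. The adaptor Sh2d2a rose (1.34, adjusted p = 0.00129 by limma) and the receptor Cd160 fell by 0.91 (adjusted p = 0.00713). Tyrobp (-0.26, adjusted p = 0.834) and Klrk1 (-0.47, 0.674) did not pass.

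Of 16 genes of the glycolysis and hypoxia list 3 rose and none fell, with 15 positive differences and a median of 0.49 beside 0.04 for all genes: the glycolytic enzymes Gapdh (1.33, adjusted p = 9.32e-04), Aldoa (1.3, 0.0232) and Eno1 (1.15, 0.0232). Ldha (0.77, adjusted p = 0.393) and Pkm (1.06, 0.105) did not pass. Of 14 type I interferon response genes 1, the nuclease Isg20, rose (1.04, adjusted p = 2.43e-05 by limma). The interferon list had 13 positive differences and 1 negative, with a median of 0.38 beside 0.04 for all genes. None of 14 proliferation genes, 13 MHC class I genes, 10 TGF-beta response genes or 20 ribosomal protein genes passed, although 18 of the 20 ribosomal protein genes also had positive differences. The 13 mitochondrial transcripts had a median of -0.54, and none passed.

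Spp1, the secreted protein osteopontin, was also higher in tumour NK cells (1.16, adjusted p = 1.88e-06). It had 13.0, 4.05, 7.29 and 2.04 UMIs per 10000 in tumour and at most 0.154 in the nodes, and 29.0% of tumour members had a UMI. Macrophages of the tumours had 8.71 UMIs per 10000 of it, close to the 8.60 of tumour NK cells, whereas Lyz2 stood at 1.21 in tumour NK cells and 92.2 in macrophages. The part of free RNA in Spp1 was not tested beyond these values.

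Cd7, a surface glycoprotein of lymphocytes, was the gene with the largest fall of the 20, by 2.51 (SE 0.32, adjusted p = 1.19e-11). It had 0.858 (KO1), 0.876 (KO2), 2.98 (WT1) and 3.51 (WT2) UMIs per 10000 in tumour, against 10.2, 20.8, 20.0 and 18.3 in the nodes, without overlap. Il7r, the interleukin 7 receptor chain, had 0, 0.297, 0.0533 and 0.216 in tumour, against 3.68, 3.02, 7.41 and 4.51 in the nodes, and fell by 1.14 (adjusted p = 3.81e-06). Klf2, a factor of circulating lymphocytes, fell by 1.67 (adjusted p = 5.77e-06), but KO2 had 10.3 UMIs per 10000 in tumour and 6.53 in the nodes. Ltb fell by 1.16 (adjusted p = 0.0102) and the chemokine receptor Cxcr3 by 0.76 (adjusted p = 0.0150).

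Of 12 cytokine and chemokine genes 3 fell and 1 rose, where 0.251% of all genes fell and 0.49% rose. Differences in the list were positive for 3 genes and negative for 9, with a median of -0.10 beside 0.04 for all genes. Xcl1, the ligand of XCR1 on cross-presenting dendritic cells, had 7.03, 6.81, 7.44 and 2.40 UMIs per 10000 in tumour, against 21, 13.9, 10.4 and 25.0 in the nodes, and fell by 1.27 (adjusted p = 0.0223). Ccl5 fell by 1.86 in the mean of logs (adjusted p = 3.45e-05), yet its plain mean in WT1 was 126 in tumour and 77.6 in the nodes, against 35.8 and 147 in KO1, so the direction there depends on averaging logs. Tgfb1 rose by 1.45 (adjusted p = 0.00241). In the immediate early and heat shock list 3 of 18 genes fell, namely Hspa1a (-1.05), Hspa1b (-0.84) and Dnajb1 (-1.07). Dusp2 of that list rose (1.43, adjusted p = 0.00227 by limma). Its differences were positive for 6 genes and negative for 12, with a median of -0.13 beside 0.04 for all genes. Hspa1a had 0 to 0.126 UMIs per 10000 in tumour and 2.40 to 6.76 in the nodes, the near-identical Hspa1a and Hspa1b cannot be fully separated, and tissue handling differed between tumours and nodes as described above; its part was not tested.

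**Figure D3:**
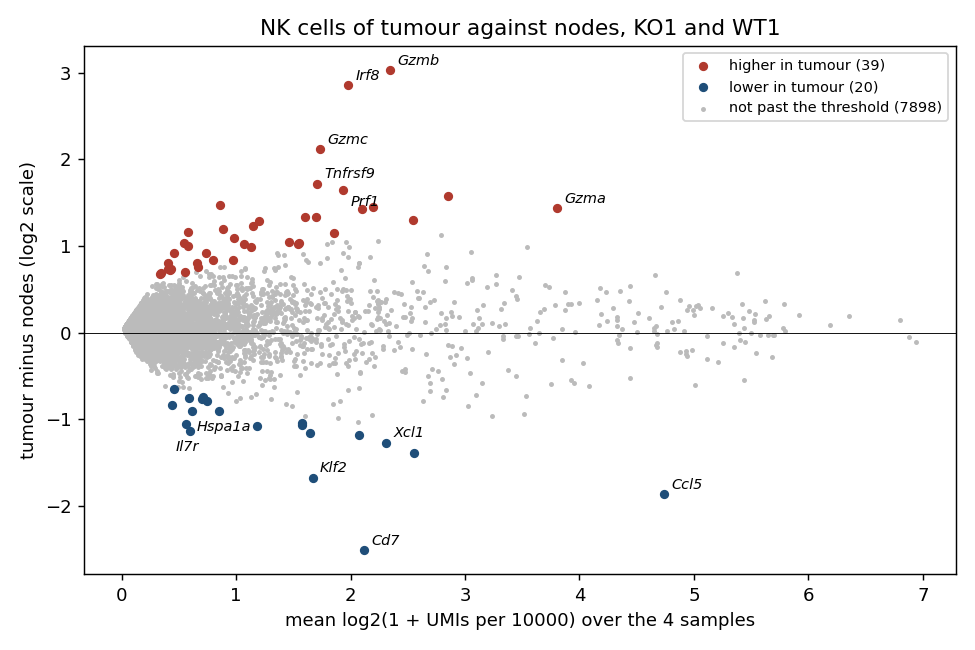
Tumour minus nodes difference (vertical axis, log2 scale) against mean level (horizontal axis, mean log2(1 + UMIs per 10000)) for 7957 genes in NK cells of KO1 and WT1; red points are the 39 genes that rose, blue the 20 that fell and grey the rest. Gzmb, at 3.03, and Cd7, at -2.51, stand at the ends.

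Node members were a mixture in these genes. An Il7r UMI was found in 41 of 73 node members: 5 of 13 in KO1, 11 of 17 in KO2, 4 of 13 in WT1 and 21 of 30 in WT2. The genes set beside it were chosen after values were seen, and the split is a description without a test. Cells with Il7r had a median of 6016 UMIs and those without it 4384. Gzma was found in 14.6% of cells with Il7r and 68.8% of cells without, Prf1 in 29.3% and 62.5%, and Eomes in 39.0% and 62.5%. The Ly49 genes Klra4 (7.32% and 62.5%) and Klra8 (4.88% and 53.1%) followed the same order, with the reservation that Klra copies share sequence. The order was the other way for Tmem176a (48.8% and 9.38%), Cxcr6 (26.8% and 6.25%), Tcf7 (75.6% and 31.2%) and Cxcr3 (63.4% and 28.1%). Il7r, Tmem176a and Cxcr6 are all in the ILC1 marker list. Whether these cells are ILC1 was not tested.

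**Figure D4:**
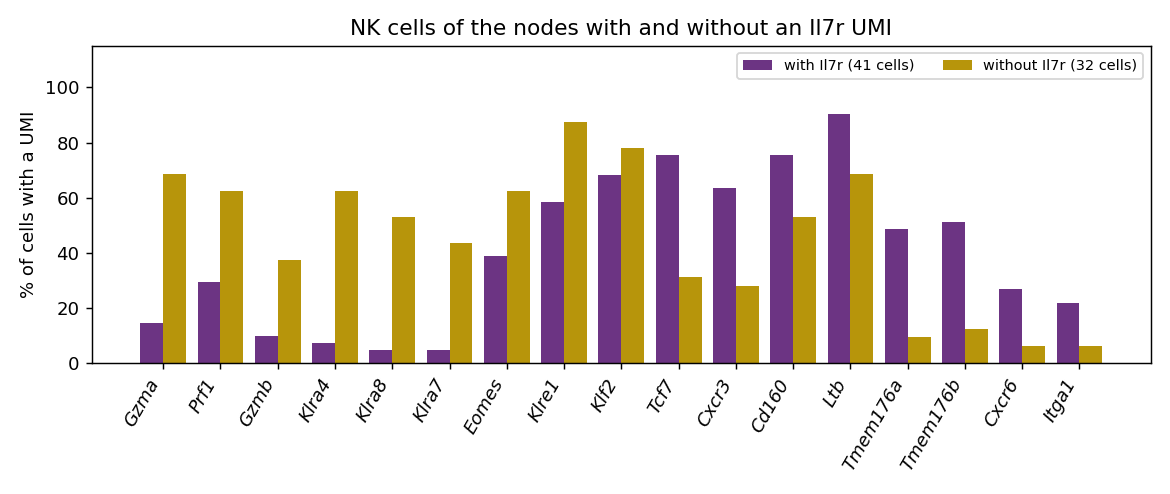
Percentage of node NK cells with a UMI (vertical axis) of 17 genes in the 41 cells with and the 32 cells without an Il7r UMI; bars start at 0 and pool 4 mice, so they have no replicate error. Gzma, at 14.6% and 68.8%, and Tmem176a, at 48.8% and 9.38%, run in opposite directions.

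The genotypes, as labelled, were compared in NK cells of both nodes as a single sample, where no cell of either genotype had a Havcr2 UMI and every mouse had 13 to 30 cells. None of 8133 genes was called by limma (0%), 236 had an unadjusted p under 0.05, and limma-voom on recovered counts called 1. The smallest p values among higher genes belonged to Sema4a, a semaphorin, with 3.23 (KO1) and 1.98 (KO2) UMIs per 10000 against 1.24 (WT1) and 0.836 (WT2), a difference of 0.83 (SE 0.21, adjusted p = 0.989). Hspa1b followed with 0.68 (adjusted p = 0.989). Among lower genes they belonged to the elongation factor Eef1a1 (-0.26, adjusted p = 0.989) and the invariant chain Cd74 (-0.71, adjusted p = 0.989). Cd74 had 0.928 (KO1) and 1.16 (KO2) UMIs per 10000 against 2.29 (WT1) and 3.95 (WT2) in NK cells, and 345 in node B cells. The part of free RNA in Cd74 was not tested. No gene of any of the 17 lists passed.

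Single tissues could not be compared at 10 cells a sample. At 3 cells a sample, chosen after the numbers were seen, no gene of 7994 was called in tumour (0%, 228 with an unadjusted p under 0.05). These fits of KO against WT took the tumour, dLN and ndLN samples of a mouse as independent, with no mouse term. Samples of 3 and of 55 cells had the same weight. The p values of these fits rest on the trend over all genes more than on the spread between mice. In dLN 3 genes were called (0.0375%), all higher in KO: Gm42418, a locus that overlaps ribosomal RNA sequence (1.21, adjusted p = 6.26e-04), Hspa1b (1.44, adjusted p = 0.00132) and Sema4a (1.53, adjusted p = 0.00984). Gm42418 had 386 (KO1) and 225 (KO2) UMIs per 10000 in dLN, against 123 (WT1) and 72.6 (WT2), and in ndLN 63.1 and 150 in KO against 257 and 187 in WT. Sema4a in dLN had 6.36 (KO1) and 1.91 (KO2) UMIs per 10000 against 0.393 (WT1) and 0.796 (WT2), from 5, 8, 7 and 16 cells. The dLN calls fell to 0 without WT1, without WT2, with no detection filter and by limma-voom, and to 1 when thinned, and without KO2 87 genes were higher and 18 lower. In ndLN 1 gene was called (0.0125%). It was Gzma, with 56.5 (KO1) and 67.9 (KO2) UMIs per 10000 against 21.6 (WT1) and 11.5 (WT2), a difference of 2.35 (SE 0.47, adjusted p = 0.00434 by limma). Leaving out KO1, WT1 or WT2 ended the Gzma call, and so did thinning, limma-voom and dropping the detection filter. In dLN Gzma had 34.6 and 13.2 in KO against 8.95 and 38.1 in WT, which overlap. A difference between dLN and ndLN called 0 of 7791 genes (0%, 311 with an unadjusted p under 0.05, and 8 higher and 3 lower by limma-voom).

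Against CD8 T cells of the same tumours, the other killer lymphocytes of the sort, NK cells of KO1 and WT1 were higher in 255 of 8962 genes (2.85%) and lower in 700 (7.81%). Like the fit between tissues, this one leaves 1 residual degree of freedom. Its p values therefore rest on the trend over all genes more than on the spread between mice. A fit with at least 3 cells a sample called fewer genes, as given in the closing section. The gates' own genes were left out, and Cd3d, Cd3g and Cd8a, which follow from the T cell gate, are not described. The adaptor genes Fcer1g (3.78) and Tyrobp (3.75) had the largest differences. Gzma differed by 3.71 (SE 0.19, adjusted p = 6.21e-83 by limma), with 54.1, 149, 138 and 58.6 UMIs per 10000 in NK cells against 8.67, 4.79, 12.3 and 0 in CD8 T cells of KO1, KO2, WT1 and WT2. Gzmc (2.41), Gzmb (1.35) and Prf1 (1.24) were higher as well, and in all 9 of 20 members of the cytotoxic list were higher and 2, Ctsc and Gzmk, lower. Of 20 tested genes of the inhibitory receptor list, which does not separate activating from inhibitory Klra genes, 9 were higher in NK cells. All 9 were Klr genes and 6 were of the Klra family, with Klra7 at 1.69. Another 5 were lower: Pdcd1, the PD-1 gene (-2.19), Lag3 (-2.11), Ctla4, Klrc1 and Havcr2 (-0.74, adjusted p = 1.21e-14). Tigit did not pass (-0.26, adjusted p = 0.335). Cxcr6, a chemokine receptor of cells that stay in tissues, was lower (-2.46), and 12 of 18 glycolysis and hypoxia genes were lower in NK cells.

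Macrophage genes differed between these populations too. Lyz2 was found in 11.8% of tumour NK cells and 35.1% of tumour CD8 T cells, Apoe in 4.30% and 27.2%, and C1qa in 5.38% and 23.8%, and Lyz2 reached 36.5 UMIs per 10000 in the 16 CD8 T cells of WT2. Cd74, which was lower in NK cells (-1.70), had 1.19 UMIs per 10000 in NK cells, 57.8 in CD8 T cells and 279 in macrophages. The part of these transcripts in the 700 lower genes was not tested. Median depth was 6711 UMIs in tumour NK cells and 8813 in tumour CD8 T cells, and with both thinned to 2000 UMIs 84 genes were higher and 202 lower.

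In the nodes all 4 mice entered the comparison, with 73 NK cells and 1929 CD8 T cells at median depths of 5311 and 5348 UMIs. NK cells were higher in 611 of 6913 genes (8.84%) and lower in 294 (4.25%). With no detection filter the counts were 254 higher and 452 lower, so the balance between directions depends on the filter. Since the filter asks for a UMI in 5% of NK and CD8 T cells pooled, a gene found in node NK cells alone could not pass it. Of the 24 genes of the inhibitory receptor list 4 were tested. Tyrobp (4.81) and Fcer1g (4.48), signalling adaptors of activating receptors, led the higher genes, followed by Ccl5 (3.97) and Xcl1 (3.11). Xcl1 had 21, 13.9, 10.4 and 25.0 UMIs per 10000 in node NK cells of KO1, KO2, WT1 and WT2, against 0.244, 0.384, 0.150 and 0.130 in node CD8 T cells, without overlap. Lower in NK cells were Ccr7 (-1.89), the receptor that leads naive T cells into nodes, and the factors Lef1 (-1.56) and Tcf7. Of 20 ribosomal protein genes 19 were lower, with a list median of -0.76 beside 0.04 for all genes, while in tumour 1 of 20 was higher and none lower. The difference between tumour and nodes in that list was not tested.

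**Figure D5:**
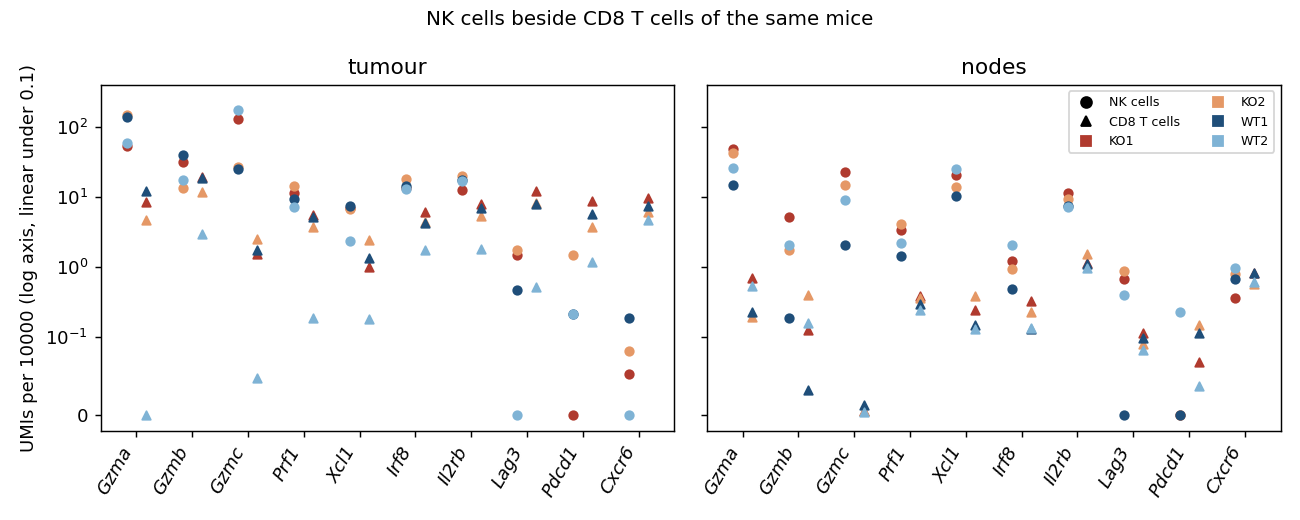
UMIs per 10000 (vertical axis, log scale above 0.1 and linear below) of 10 genes in NK cells (circles, left of each pair) and CD8 T cells (triangles, right) of each mouse, in tumour and in the nodes; colours stand for the 4 mice. Gzma lies at 54.1 to 149 in tumour NK cells and at 0 to 12.3 in tumour CD8 T cells.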

How the data were processed

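Single cells of 4 mice and 3 tissues were read on 10x Genomics 5' libraries in 2 channels, with tagged CD45 antibodies marking mouse and tissue, per the labels' protocols. Reads were processed with Cell Ranger 3.0.2 on mm10, per the submitters' processing notes; tag assignment and cell filters were not stated there. The deposited values are natural log values, ln(1 + 10000 x UMIs of a gene / UMIs of the cell), for 12638 genes. UMI counts recovered from the authors' values were whole in 100% of values (within 0.01). No doublet caller was run.

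NK members were selected as described above. Per mouse and tissue, log2(1 + UMIs per 10000), derived here from the deposited values, was averaged over cells and tested with limma 3.58.1 (R 4.3.3; lmFit and eBayes with trend; two-sided, Benjamini-Hochberg at 0.05 over all genes tested), with at least 10 cells a sample and genes with a UMI in at least 5% of the cells used, with the mouse as a term between tissues and cell types. The test procedure was tested on simulated data. Shares were tested with exact permutation tests over mice. Alternatives were no detection filter, a pseudocount of 0.1 after averaging, limma-voom on summed UMIs, other gates, each mouse left out and the block. Fits with at least 3 cells, thinning to 2000 UMIs and leaving out cells over 20000 UMIs were added after the data were seen. The members and the 17 gene lists were chosen with earlier results of these data known. Named genes were the called list members and up to 4 others of a list by level, and per comparison up to 15 genes in each direction by size among called genes of above-median level whose samples agree in direction, or the 5 smallest p where fewer than 5 passed; the text gives part of them, and genes outside this rule, such as those of the Il7r split, were chosen after their values were seen. The mice are the replicates.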

Additional observations from a re-analysis of the deposited data

How the results depend on the processing

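No call of a gene between KO and WT in both nodes was made under any alternative but limma-voom (1 higher); the replicate block (channel) gave 0 and each mouse left out 0. Numbers mark only a shared channel (correlation of deviations 0.07 for KO1 and WT1 over 8133 genes). The share difference KO minus WT turned to 0.292 without KO2 and 1.48 without WT1 in tumour (range -1.48 to 1.48 percentage points), in ndLN to -0.00571 when thinned and ranged from -0.300 to 0.360 with a mouse left out, and in both nodes ranged from -0.730 to 0.0706.

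Tumour against nodes gave 39 higher and 20 lower genes in 2 mice. limma-voom gave 72 and 90, no replicate block 1 and 0, thinning 6 and 3, at least 3 cells 78 and 45, and the pseudocount of 0.1 gave 33 lower. With at least 3 cells, no detection filter gave 18 and 7, thinning 14 and 10, and leaving out a mouse 40 to 69 and 27 to 29; lower genes were 78 by limma-voom, 23 by the stricter gate and 29 with no replicate block.

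With at least 3 cells, KO against WT in tumour gave 1 higher and 1 lower by limma-voom, 1 lower with the pseudocount of 0.1, and 0 to 1 in each direction with a mouse left out. In dLN the 3 higher genes became 0 with no detection filter and by limma-voom, 5 with the replicate block, 1 thinned and 0 to 87 with a mouse left out (87 without KO2); lower genes were 6 with the pseudocount of 0.1 and 0 to 18 with a mouse left out. In ndLN the 1 higher gene became 0 with no filter, by limma-voom and thinned, 9 with the pseudocount of 0.1, 2 with the stricter gate and 0 to 3 with a mouse left out; lower genes were 1 with the pseudocount of 0.1, the stricter gate and thinning. dLN against ndLN gave 8 higher and 3 lower by limma-voom, 1 lower with the stricter gate and 0 to 1 lower with a mouse left out.

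NK against CD8 T cells in tumour (255 and 700) gave 463 higher by limma-voom and 155 with no replicate block; at least 3 cells gave 93 and 245 and thinning 84 and 202. In the nodes (611 and 294) no detection filter gave 254 and 452, limma-voom 926 higher, the stricter gate 392 higher, thinning 209 and 195, and leaving out a mouse 318 to 652 higher (318 without WT2, 384 without KO2) and 236 to 272 lower. The causes were not tested.

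At 10 cells a sample, KO against WT in a single tissue and dLN against ndLN could not be run, nor, with 2 mice, leaving out a mouse, the stricter gate or at least 20 cells for tumour against nodes. The 7 and 3 tumour NK cells of KO2 and WT2 limit every statement on tumour genotype.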

Other observations

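Of the other motifs searched in the start regions, the T-box letters AGGTGTGA or AGGTGTTA were found in 2 of 37 genes higher in tumour NK cells, in 1 of 14 lower genes and in 1.96% of all genes. The ETS letters CAGGAAG or ACCGGAAG were found in 10 higher genes, 6 lower genes and 16.9% of all genes. GAS letters (TTCNNNGAA) were found in 8 higher and 3 lower genes and in 9.55% of all, and the STAT letters TTCCNGGAA, which overlap GAS, in 1 and 0 and in 1.35%. The kappa B motif was found in 0 and 1 and in 0.281%, and the heat shock letters GAANNTTC in 3 and 2 and in 9.04%. These are descriptions of letters, with no test.

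Of 142 genes looked at for opposite tumour against node differences in the 2 genotypes, 0 moved one way in both KO mice and the other way in both WT mice.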
